A study of Mus musculus with 13 samples.

Results

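Wnt signalling was examined through 50 protein-coding genes, of 48795 genes in the count table, in the brains of mice that express activated YAP1 in a neuronal lineage. The genes were chosen by a rule on their names that uses no levels, with earlier results of these data known. They were the Wnt ligands (19 genes), the Frizzled receptors (10) and the secreted inhibitors of the Dkk, Sfrp and Wif families (9). Added to these were β-catenin with 3 genes of its destruction complex (4), the TCF/LEF factors (4) and 4 feedback inhibitors. The feedback inhibitors, Axin2, Nkd1, Rnf43 and Znrf3, are themselves targets of the pathway. All 50 symbols were found in the table.

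RNA came from the right hemisphere, taken at postnatal day 11 without the cerebellum and the olfactory bulb, and was sequenced from 13 mice. The nlsYAP5SA group (n = 5) was NexCre +/- YAP5SAnls +/-, so that a nuclear YAP1 that kinases cannot phosphorylate at 5 serines was switched on in cells with Cre. Its control group (n = 5) was NexCre -/- YAP5SAnls +/-, littermates that carry the same transgene silent behind an intact STOP cassette. The C57BL/6 group (n = 3) was wild type, of the same age but from other litters, and all 3 groups had the C57BL/6J background. NEX-Cre acts in the NEX/NeuroD6 lineage of precursors that give pyramidal neurons of the cortex and hippocampus, so cells outside it carry no active transgene, and a bulk sample does not separate them. In such samples, fewer cells of a type and less RNA per cell cannot be told apart. The littermates came from different matings that the labels do not assign, and both sexes were used without a record for each mouse.

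Wnt proteins are secreted, lipid-modified ligands that bind Frizzled receptors and co-receptors of the LRP family. In the canonical branch this halts the destruction complex of Apc, Axin and Gsk3b, and β-catenin then accumulates and acts with TCF/LEF factors on target genes, some of which encode inhibitors of the pathway. Other ligands, Wnt5a the best known, act mainly through branches without β-catenin that govern cell polarity and movement. In the developing forebrain, Wnts from the cortical hem pattern the hippocampus, and Wnt7a and Wnt7b made by neural cells direct the growth of brain blood vessels.

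Levels are given as CPM, the estimated counts relative to the library total after scaling with edgeR's TMM factors. Libraries summed to between 20871566 and 25524349 estimated counts, and these totals overlapped between the groups. Yap1 itself, the gene whose activated form was introduced, lay at 20.3, 19.9, 20.7, 20.1 and 22.3 CPM in the controls, at 24.3, 26.6, 22.6, 24.3 and 23.2 CPM in nlsYAP5SA mice and at 21.6, 19.4 and 20.6 CPM in C57BL/6 mice. Every nlsYAP5SA value was above every control value (log2 fold change 0.23, SE 0.06, adjusted p = 0.0361). Whether reads of the transgene are among those counted for Yap1 was not tested. Y-linked transcripts were present in 5 of 5 controls, in 2 of 5 nlsYAP5SA mice (replicates 3 and 4) and in 2 of 3 C57BL/6 mice, so the groups were not balanced for sex, and calls lost with the Y-linked level as a covariate are given below as such. Yap1 was among them, with a log2 fold change of 0.18 under that covariate (adjusted p = 0.372).

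Of the 50 genes, 42 passed edgeR's filter on low counts in the comparison of nlsYAP5SA with control. The others were Wnt1 (3 to 12 counts in a sample), Wnt3a (0 to 2), Wnt8b (0 to 6), Wnt10b (3 to 10), Dkk1 (0 to 5), Dkk4 (0 to 4), Sfrp5 (2 to 17) and Wnt8a, which had 0 counts in all 13 samples. A count of 0 allows up to 3 counts, so Wnt8a was not detectable at this depth. These limits cover counting error only.

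To compare levels between genes, CPM was divided by the length of the gene's exons in kb. Per kb, the most abundant ligand of the control hemisphere was Wnt7b at 9.03 ± 0.85 (SD, n = 5). It was followed by Wnt4 at 5.66 ± 0.55 and Wnt7a at 5.44 ± 0.43 CPM per kb, which did not differ beyond their spread. Wnt9a lay at 3.14 ± 0.14 and Wnt5a at 2.19 ± 0.28, each apart from its neighbours. Wnt2, Wnt3 and Wnt2b formed a lower group of overlapping levels between 0.931 and 1.25 CPM per kb, and the other ligands lay at 0.460 or less. The ligands together summed to 30.96 ± 1.37 CPM per kb in control, 32.9 ± 1.80 in nlsYAP5SA and 30.9 ± 1.46 (n = 3) in C57BL/6 mice, with overlapping ranges. Within that sum the share of Wnt5a was 7.11% ± 1.18 in control and 10.8% ± 1.57 in nlsYAP5SA mice, that of Wnt4 was 18.3% ± 1.05 and 14.4% ± 1.26, and that of Wnt7b was 29.1% ± 1.5 and 29.2% ± 1.98. These shares are a description, and no test was run on them.

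**Figure D1:**
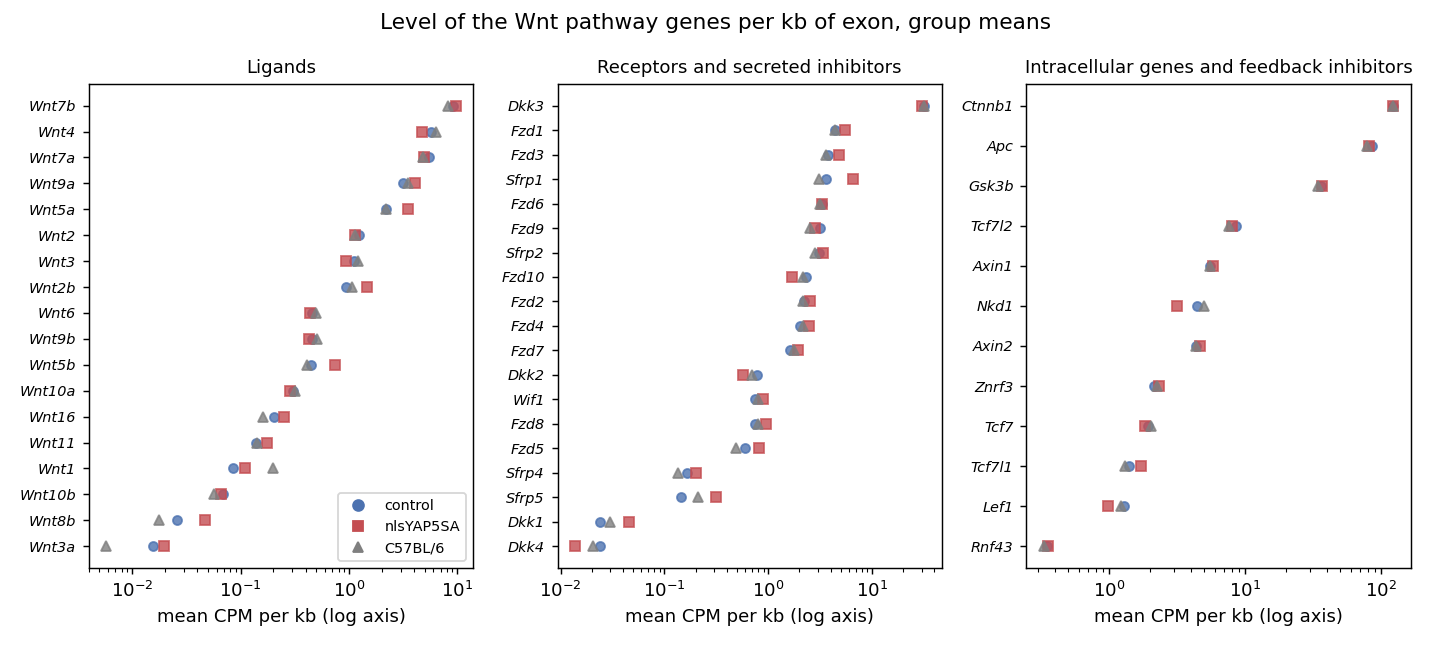
Mean level of each gene in CPM per kb of exon (log axis) in control (circles, n = 5), nlsYAP5SA (squares, n = 5) and C57BL/6 mice (triangles, n = 3), with ligands, receptors and secreted inhibitors, and intracellular genes in separate panels. Ctnnb1 (121 CPM per kb in controls), Apc (85.1) and Gsk3b (36.1) stood far above every ligand, and Wnt8a, at 0 in all samples, has no symbol.

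Among the receptors, Fzd1 was the most abundant at 4.36 ± 0.35 CPM per kb in controls, and Fzd3, Fzd6 and Fzd9 followed between 3.15 and 3.74 with spreads that overlap it or each other. Fzd8 (0.739 ± 0.053) and Fzd5 (0.597 ± 0.035) were lowest. Dkk3 was by far the most abundant gene of the secreted inhibitor group, at 31.9 ± 3.11 CPM per kb. It is a divergent member of the Dickkopf family, placed in this group by its name, and its action on Wnt signalling was not tested. Sfrp1 followed at 3.57 ± 0.38 and Sfrp2 at 3.08 ± 0.33 CPM per kb. Inside the cell, Ctnnb1, which encodes β-catenin, had 121 ± 5.95 CPM per kb, and of the TCF/LEF factors Tcf7l2 stood highest at 8.54 ± 0.51, with Tcf7, Tcf7l1 and Lef1 between 1.28 and 1.92. These levels depend on the length used: by the longest transcript Tcf7l2 had 20.2 and Lef1, the lowest by all exons, had 3.09 CPM per kb, above Tcf7 (2.04) and Tcf7l1 (1.81). In controls 29 of the 50 genes reached 1 CPM per kb, and 30 did with the longest transcript in place of all exons, Wnt2b being the addition (1.18).

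The question of the main comparison was how these genes differed between nlsYAP5SA and control hemispheres. No group carried Cre without the transgene. Activated YAP1, Cre itself and the Neurod6 allele that holds it therefore cannot be told apart in these differences. In nlsYAP5SA mice, 3 ligands (Wnt5a, Wnt2b, Wnt9a), 2 receptors (Fzd1, Fzd5) and the Wnt-binding inhibitor Sfrp1 were higher than in controls, by 0.33 to 0.86 on the log2 scale, while the receptor Fzd10 and the feedback inhibitor Nkd1 were lower. EdgeR called 0 of the 4 genes for β-catenin and its destruction complex (0 also by DESeq2 or at an unadjusted p of 0.05) and 0 of the 4 TCF/LEF factors, of which 2 (Lef1 and Tcf7l1) reached that unadjusted p and 1 (Lef1) was called by DESeq2. With edgeR's quasi-likelihood test and p values adjusted by Benjamini-Hochberg across all 16315 genes in the fit, 8 of the 42 genes (19.0%) were called at an adjusted p of 0.05 or less, 6 higher and 2 lower, against 10.8% of all genes in the fit. The same test called 7.36% of all genes higher and 3.44% lower. With the Y-linked level as a covariate 3 of the 42 were called, Sfrp1, Wnt2b and Wnt5a, and among all genes the calls fell from 1761 to 539.

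Groups did not overlap for 9 of the 42 genes, against 10.1% of all genes tested. In 8 of them every nlsYAP5SA mouse was above every control mouse (Wnt2b, Wnt5a, Wnt9a, Fzd1, Fzd5, Fzd8, Sfrp1 and Axin2), against 6.49% of all genes, and in Nkd1 each was below, against 3.57%. The median log2 fold change over the 42 genes was 0.07, beside -0.01 over all genes tested, and 25 of the 42 (59.5%) had a higher mean in nlsYAP5SA mice, beside 48.7% of all genes. By role, the median was 0.01 for the 14 ligands tested, 0.28 for the 10 receptors, 0.18 for the 6 secreted inhibitors and -0.08 for the 4 TCF/LEF factors.

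**Figure D2:**
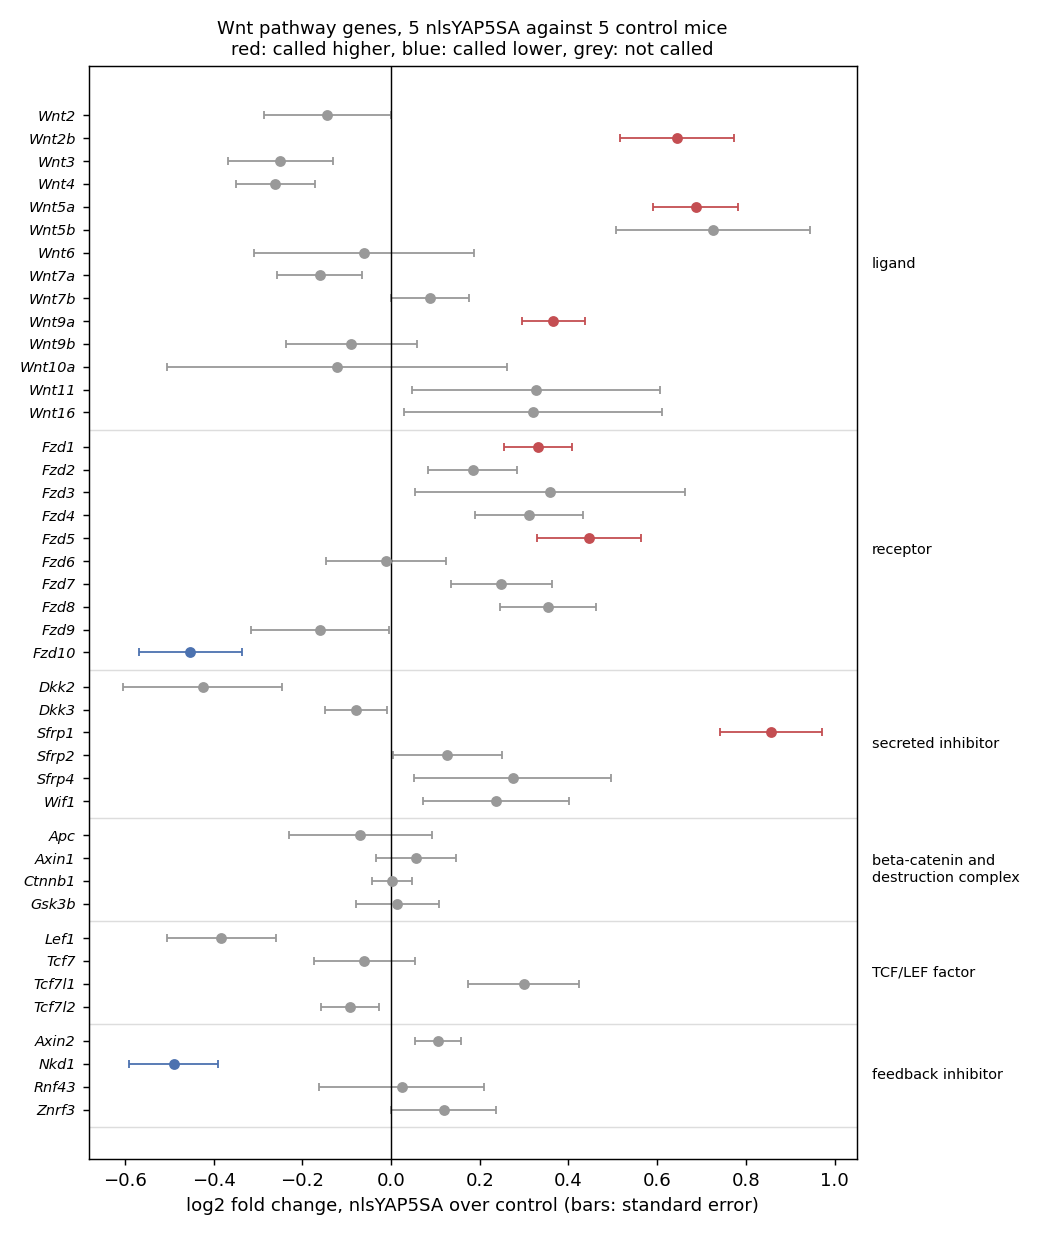
Log2 fold change of nlsYAP5SA (n = 5) over control mice (n = 5) for each of the 42 genes tested, grouped by role, with bars for the standard error. Genes called higher (red) reach 0.86 in Sfrp1, those called lower (blue) -0.49 in Nkd1, and Ctnnb1 lies at 0.00.

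Wnt5a, the best known ligand of the branches without β-catenin, lies at chr14:28504750-28527448 (GRCm38, plus strand). Its values were 14.3, 17.5, 20.2, 16.2 and 17.5 CPM in controls and 26.7, 30.8, 23.3, 28.3 and 28.9 CPM in nlsYAP5SA mice. The lowest nlsYAP5SA mouse was thus above the highest control (log2 fold change 0.69, SE 0.10, adjusted p = 0.0005). C57BL/6 mice, at 17.6, 14.3 and 19.4 CPM, lay among the controls. Among the mice with Y-linked transcripts only, 5 control and 2 nlsYAP5SA mice, it had a log2 fold change of 0.59 and was not called (adjusted p = 0.0623). Its close relative Wnt5b was far less abundant, at 0.875 to 1.60 CPM in controls and 1.32 to 2.67 CPM in nlsYAP5SA mice, and it was not called (0.73, SE 0.22, adjusted p = 0.0535). DESeq2's Wald test called Wnt5b (adjusted p = 0.0296), and its groups overlapped.

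Wnt2b, a ligand of the canonical branch that is made by the cortical hem in the embryo, lies at chr3:104945272-104961921 on the minus strand. It was at 3.43, 3.40, 4.25, 5.12 and 3.35 CPM in controls, against 6.41, 6.07, 6.11, 6.74 and 5.29 CPM in nlsYAP5SA mice. The groups were separate by a small margin, set by control replicate 4 and nlsYAP5SA replicate 5 (log2 fold change 0.64, SE 0.13, adjusted p = 0.0063). C57BL/6 mice had 4.12, 4.41 and 4.801 CPM, within the range of the controls. Among the mice with Y-linked transcripts only, Wnt2b had a log2 fold change of 0.71 and was not called (adjusted p = 0.106).

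Wnt9a had 9.89, 11.0, 10.7, 10.6 and 10.1 CPM in controls and 15.2, 12.5, 13.3, 12.99 and 13.5 CPM in nlsYAP5SA mice, which all lay above them. The difference was smaller than for the other called ligands (log2 fold change 0.37, SE 0.07, adjusted p = 0.0052), and with the Y-linked level as a covariate it was 0.33 and not called (adjusted p = 0.0966). C57BL/6 mice, at 10.7, 12.4 and 11.9 CPM, reached nearly to the lowest nlsYAP5SA mouse. Wnt9a lies at chr11:59306928-59333552 beside Wnt3a (chr11:59248033-59290752), a gene with no more than 2 counts in any sample, and the Wnt3 and Wnt9b genes are neighbours further along the same chromosome. Neither of that second pair was called, Wnt3 with a log2 fold change of -0.25 (SE 0.12, adjusted p = 0.223) and Wnt9b with -0.09 (SE 0.15, adjusted p = 0.761).

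The ligands with the highest levels were not called. Wnt7b lay at 40.8 to 50.8 CPM in controls and 38.6 to 53.1 CPM in nlsYAP5SA mice (log2 fold change 0.09, SE 0.09, adjusted p = 0.588), and Wnt7a had a log2 fold change of -0.16 (SE 0.10, adjusted p = 0.334). Wnt4, which acts in kidney and gonad development among other tissues, was at 26.8, 24.4, 20.3, 23.7 and 23.6 CPM in controls and at 19.6, 17.5, 22.8, 19.2 and 20.2 CPM in nlsYAP5SA mice. These overlapped through control replicate 3 and nlsYAP5SA replicate 3, and the test did not call them (-0.26, SE 0.09, adjusted p = 0.0837), whereas DESeq2's Wald test did (adjusted p = 0.0381). The other ligands tested, Wnt2, Wnt6, Wnt10a, Wnt11 and Wnt16, had log2 fold changes between -0.14 and 0.33 with standard errors of 0.14 to 0.38 and were not called.

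**Figure D3:**
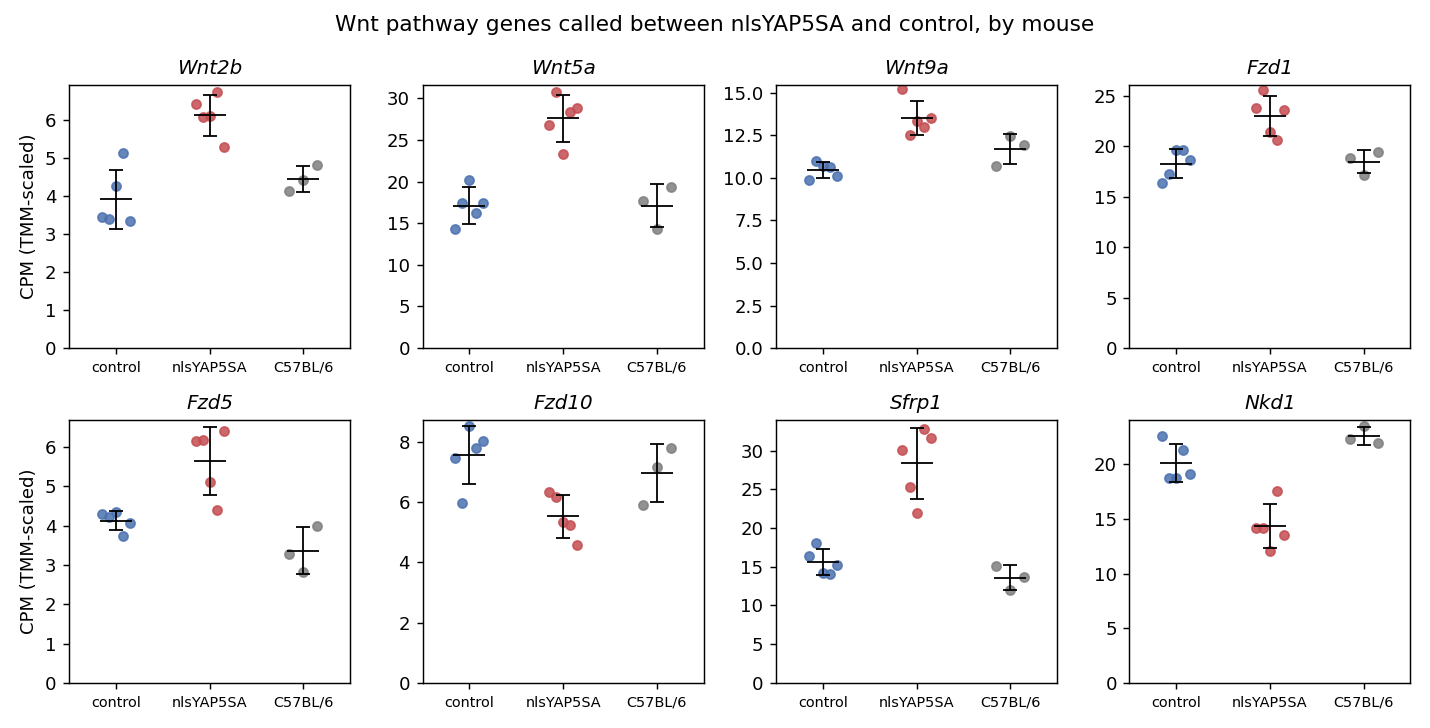
CPM of the 8 genes called between nlsYAP5SA and control mice, with a point for each mouse, the mean as a line and bars for the SD (n = 5, 5 and 3). All nlsYAP5SA points lie above all control points for Wnt2b, Wnt5a, Wnt9a, Fzd1, Fzd5 and Sfrp1, and below them for Nkd1, while those of Fzd10 overlap.

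Frizzled receptors differed in both directions. Fzd1 (chr5:4753839-4758035, minus strand) was at 16.4, 17.2, 19.6, 19.7 and 18.6 CPM in controls and at 23.9, 25.6, 21.5, 20.7 and 23.6 CPM in nlsYAP5SA mice. The groups did not overlap (log2 fold change 0.33, SE 0.08, adjusted p = 0.0149), but nlsYAP5SA replicates 3 and 4, the pair with Y-linked transcripts, were its 2 lowest, and with the Y-linked level as a covariate the log2 fold change was 0.21 and not called (adjusted p = 0.326).

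Fzd5 (chr1:64730558-64737751, minus strand), a receptor with a known role in eye development, was at 4.29, 4.22, 4.33, 3.73 and 4.06 CPM in controls and at 6.14, 6.16, 5.11, 4.39 and 6.41 CPM in nlsYAP5SA mice. Again replicates 3 and 4 were the lowest of the nlsYAP5SA mice, and replicate 4 was above the highest control by a small margin (log2 fold change 0.45, SE 0.12, adjusted p = 0.0275). Its call was lost with the Y-linked covariate, where the log2 fold change was 0.21 (adjusted p = 0.533), and without any of nlsYAP5SA replicates 1, 2 and 5 or control replicates 2, 4 and 5 (adjusted p between 0.0530 and 0.0814).

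Fzd10 (chr5:128600844-128604093, plus strand) was the receptor called lower. Controls had 7.48, 5.99, 8.54, 7.80 and 8.02 CPM and nlsYAP5SA mice 6.32, 6.16, 5.33, 5.26 and 4.59 CPM. The groups overlapped, since control replicate 2 lay below nlsYAP5SA replicates 1 and 2 (log2 fold change -0.45, SE 0.12, adjusted p = 0.0254). The call was lost with the Y-linked covariate, where the log2 fold change was -0.51 (adjusted p = 0.142), and without any of control replicates 3, 4 and 5 or nlsYAP5SA replicates 3 and 5 (adjusted p between 0.0502 and 0.0691).

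Fzd8 was higher in every nlsYAP5SA mouse (5.92, 5.79, 4.94, 6.74 and 4.87 CPM) than in every control (3.96 to 4.79 CPM) without passing the test (0.35, SE 0.11, adjusted p = 0.0563). Fzd2, Fzd4 and Fzd7 had log2 fold changes of 0.18 to 0.31, Fzd6 of -0.01 and Fzd9 of -0.16, with overlapping groups and no call. Fzd3, a receptor of the planar polarity branch in axon tracts, varied widely, from 20.1 to 79.4 CPM within the controls, from 36.5 to 82.0 CPM within nlsYAP5SA mice and from 20.3 to 82.9 CPM within C57BL/6 mice (nlsYAP5SA over control 0.36, SE 0.30, adjusted p = 0.514).

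The 250 bases before the RefSeq start were searched on both strands for the TCF/LEF core CTTTGA and the TEAD core GGAATG, TEAD factors being the DNA-binding partners of YAP1. The table of RefSeq promoters used here (GRCm38.p6) was matched for 35 of the 50 genes and for 6 of the 8 called, and the windows of Sfrp1 and Wnt5a were not analysed here. CTTTGA was found in 6 of the 35 (Dkk1, Fzd1, Gsk3b, Lef1, Wnt11 and Wnt5b), beside 15.8% of 27025 genes, and GGAATG in 0 of the 35, beside 14.4% of those genes. A match describes letters in a window and not a bound site. The windows of Fzd1, the called gene with a match, and of Nkd1, the called gene that was lower in every nlsYAP5SA mouse, are printed 5′ to 3′ on the gene's own strand, with the match in capitals (the reverse complement of CTTTGA, 242 bases before the start). The RefSeq start used for Nkd1 lies inside the gene as GENCODE M21 annotates it, so its window is not upstream of the whole gene.
Fzd1, chr5:4758217-4758466, minus strand: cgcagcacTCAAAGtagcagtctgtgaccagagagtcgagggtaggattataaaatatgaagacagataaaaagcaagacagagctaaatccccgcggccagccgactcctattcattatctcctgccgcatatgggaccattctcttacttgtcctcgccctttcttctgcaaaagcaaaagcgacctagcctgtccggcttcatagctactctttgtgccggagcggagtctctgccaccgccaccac
Nkd1, chr8:88527383-88527632, plus strand: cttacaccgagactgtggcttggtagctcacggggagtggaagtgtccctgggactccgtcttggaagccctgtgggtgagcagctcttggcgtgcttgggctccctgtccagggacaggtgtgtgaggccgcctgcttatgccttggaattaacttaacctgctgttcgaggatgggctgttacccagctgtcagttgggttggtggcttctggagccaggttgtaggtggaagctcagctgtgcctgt

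Sfrp1, a secreted Frizzled-related protein that binds Wnt ligands outside the cell, differed most of the 42 genes. It lies at chr8:23411502-23449632 (plus strand) and had 16.4, 18.1, 14.2, 14.1 and 15.2 CPM in controls. In nlsYAP5SA mice the values were 30.1, 25.3, 21.9, 32.8 and 31.6 CPM, and C57BL/6 mice had 15.1, 11.97 and 13.7 CPM. Each nlsYAP5SA mouse was above every mouse of the other groups (log2 fold change over control 0.86, SE 0.11, adjusted p = 0.0004). Of the 8 called genes it alone was called under all 23 alternatives tried, with an adjusted p of 0.0314 among the mice with Y-linked transcripts only (5 control and 2 nlsYAP5SA mice), an alternative chosen after those levels were seen.

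Other secreted inhibitors were not called. Dkk3 had a log2 fold change of -0.08 (SE 0.07, adjusted p = 0.535), Sfrp2 of 0.13 (SE 0.12, adjusted p = 0.572), Wif1 of 0.24 (SE 0.16, adjusted p = 0.409) and Sfrp4 of 0.27 (SE 0.22, adjusted p = 0.492). Dkk2 was at 2.17 to 3.86 CPM in controls and 1.72 to 2.78 CPM in nlsYAP5SA mice (-0.42, SE 0.18, adjusted p = 0.165), and its groups overlapped.

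The core of the canonical branch had nearly equal means in both groups. Ctnnb1 lay at 579, 626, 647, 639 and 659 CPM in controls and at 639, 626, 621, 641 and 631 CPM in nlsYAP5SA mice, a log2 fold change of 0.00 with a standard error of 0.04 (adjusted p = 0.988). Axin1, the scaffold of the destruction complex, had 0.06 (SE 0.09), the kinase gene Gsk3b 0.01 (SE 0.09) and Apc -0.07 (SE 0.16), with adjusted p values of 0.756 to 0.951. A p value that misses the threshold does not show that the levels were the same, and protein or its localisation was not measured in these libraries.

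Apc, Gsk3b and Fzd3 have long transcripts and moved with the other long transcripts from mouse to mouse. Over 926 genes with a transcript of at least 8000 bases, the median log2 deviation from the gene's mean was lowest in C57BL/6 replicate 2 (-0.34) and control replicate 1 (-0.31) and highest in C57BL/6 replicate 3 (0.30) and control replicate 3 (0.22). Apc was lowest in control replicate 1 (867 CPM) and highest in control replicate 3 (1819 CPM). Gsk3b had 280 and 418 CPM in the same mice, and 249 and 430 CPM in C57BL/6 replicates 2 and 3. The part of transcript length in these values was not tested.

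**Figure D4:**
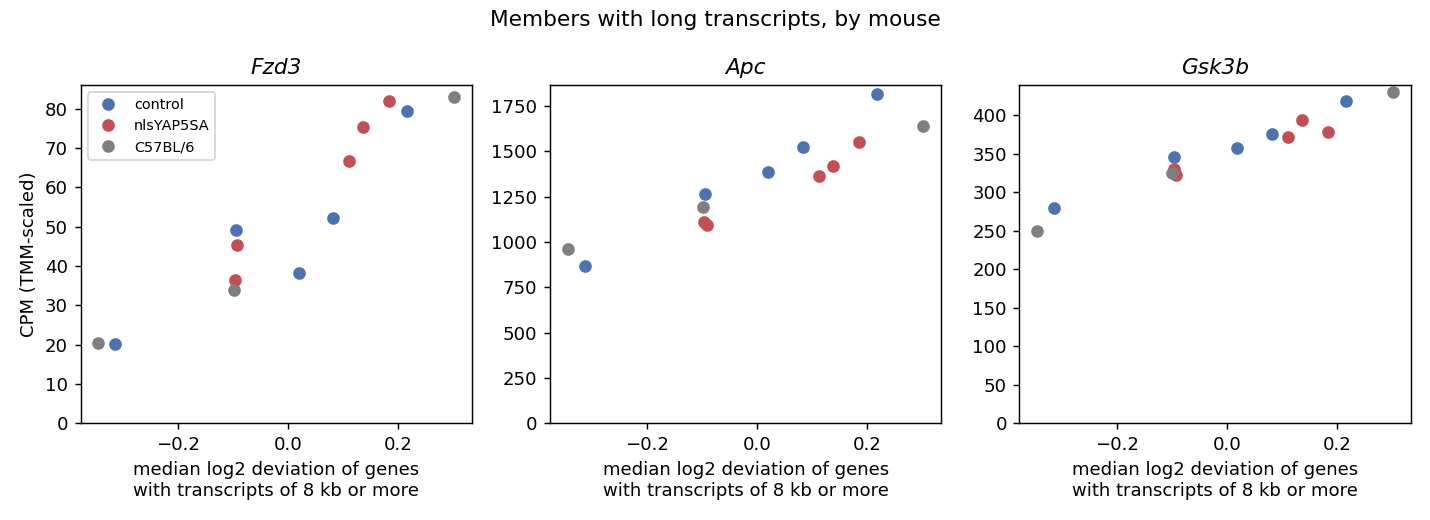
CPM of Fzd3, Apc and Gsk3b in each of the 13 mice against the median log2 deviation of the 926 genes with transcripts of at least 8000 bases in the same mouse. Control replicate 1 and C57BL/6 replicate 2, near -0.3, hold the lowest values of all 3 genes, and no group stands apart.

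Of the TCF/LEF factors, Lef1 came nearest to a call. It was at 9.52, 10.3, 12.5, 13.3 and 10.8 CPM in controls and at 9.12, 9.60, 6.41, 9.26 and 8.94 CPM in nlsYAP5SA mice, overlapping through control replicate 1 and nlsYAP5SA replicate 2 (log2 fold change -0.38, SE 0.12, adjusted p = 0.0673). DESeq2's Wald test called it lower (adjusted p = 0.0320), as did the test without control replicate 1 (adjusted p = 0.0447). Tcf7l2, a factor that marks thalamic neurons, had -0.09 (SE 0.07, adjusted p = 0.422), Tcf7 -0.06 (SE 0.11, adjusted p = 0.794) and Tcf7l1, which often acts as a repressor, 0.30 (SE 0.12, adjusted p = 0.159).

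The feedback inhibitors, which are induced by β-catenin and used as readouts of it, did not move together. Axin2 was at 24.6, 22.3, 24.2, 24.9 and 23.5 CPM in controls and at 25.6, 25.5, 25.5, 26.7 and 25.5 CPM in nlsYAP5SA mice. Every nlsYAP5SA mouse was higher, by a margin too small for a call (log2 fold change 0.11, SE 0.05, adjusted p = 0.235). Nkd1 (chr8:88521354-88594884), which encodes a protein that binds Dishevelled, was at 22.6, 18.8, 18.8, 21.3 and 19.1 CPM in controls but at 14.2, 14.2, 12.1, 17.6 and 13.6 CPM in nlsYAP5SA mice. All of the latter were lower (-0.49, SE 0.10, adjusted p = 0.0071), and the call was lost with the Y-linked covariate, where the log2 fold change was -0.44 (adjusted p = 0.133). Rnf43 (0.02, SE 0.19) and Znrf3 (0.12, SE 0.12), ligases that remove Frizzled receptors from the membrane, were not called.

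The background of the controls was examined against C57BL/6 mice, which carry neither allele. No gene of the 42 tested was called by edgeR's quasi-likelihood test (adjusted p of at least 0.9996) or by DESeq2, and 0 reached an unadjusted p of 0.05, beside 0.169% of 16546 genes called and 3.78% at that unadjusted p. Log2 fold changes of C57BL/6 over control ran from -0.33 for Wnt16 to 0.18 for Wnt2b. This comparison had fewer mice than the main one, and a missing call does not show that levels were equal. Of the 42, Wnt7a alone did not overlap, at 15.1, 15.6 and 15.5 CPM in C57BL/6 mice and 16.0 to 19.4 CPM in controls. Over all genes, 3.34% did not overlap in either direction and 1.39% in this one. In nlsYAP5SA mice its 12.96 to 18.2 CPM reached across both. Wnt1, not tested for its low counts, also did not overlap, with 10 to 12 counts in C57BL/6 mice and 3 to 7 in controls. It had 3 to 8 counts in nlsYAP5SA mice.

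Set against the C57BL/6 mice, nlsYAP5SA mice gave 5 calls among 43 genes tested (11.6%). Of all 16641 genes 6.38% were called, 4.16% higher and 2.22% lower. Leaving out each mouse in turn gave between 3 and 7 calls in place of the 5. Sfrp5 was the gene added by the filter (0.54, SE 0.40, adjusted p = 0.484). This comparison shares its nlsYAP5SA mice with the main one and is not independent of it. Sfrp1 (1.04, SE 0.14, adjusted p = 0.0027), Wnt5a (0.67, SE 0.12, adjusted p = 0.0106) and Fzd5 (0.73, SE 0.17, adjusted p = 0.0359) were higher, and Nkd1 (-0.67, SE 0.11, adjusted p = 0.0076) was lower. Wnt4 was called lower here (-0.44, SE 0.11, adjusted p = 0.0488), with C57BL/6 mice at 24.8, 31.5 and 23.9 CPM, all above the nlsYAP5SA mice. With the Y-linked level as a covariate Fzd5 (0.68, adjusted p = 0.0763) and Wnt4 (-0.45, adjusted p = 0.0696) were not called, and among the mice with Y-linked transcripts only, a pair in each group, none of the 5 was (adjusted p between 0.189 and 0.917). In those mice the log2 fold change was 0.91 for Sfrp1, 0.47 for Wnt5a, -0.59 for Nkd1, 0.37 for Fzd5 and -0.22 for Wnt4. Wnt5b (0.84, SE 0.28, adjusted p = 0.113), Wnt2b (0.45, SE 0.12, adjusted p = 0.0580), Fzd1 (0.30, SE 0.09, adjusted p = 0.0824) and Wnt9a (0.19, SE 0.10, adjusted p = 0.286) were higher in each nlsYAP5SA mouse than in each C57BL/6 mouse without a call. Fzd10 had -0.35 (SE 0.14, adjusted p = 0.198) with overlapping groups. In all, 9 of the 43 did not overlap, against 15.2% of all genes.

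A list of 67 further genes of the pathway was written with earlier results of these data known. Of these, 64 were tested between nlsYAP5SA and control mice, with 9 called higher and 2 lower, beside 7.36% and 3.44% of all genes. Leaving out each mouse in turn gave between 4 and 10 calls in place of the 11. Co-receptors and alternative receptors held 4 of the 9 (of 9 tested): Gpc4, a glypican that binds Wnts at the cell surface (1.17, SE 0.10, adjusted p = 1.71e-05), Ror1, a receptor for Wnt5a (0.83, SE 0.15, adjusted p = 0.0034), Reck, the partner of Adgra2 in Wnt7 signalling (0.45, SE 0.12, adjusted p = 0.0252), and Ptk7 (0.31, SE 0.08, adjusted p = 0.0328). Gpc4 was at 9.69 to 13.7 CPM in controls and 22.8 to 30.0 CPM in nlsYAP5SA mice. Ror1 was at 1.76 to 1.98 CPM in controls and at 4.11, 3.25, 2.64, 2.69 and 3.93 CPM in nlsYAP5SA mice, where replicates 3 and 4 were lowest. Ror2, the relative of Ror1, was not called (0.02, SE 0.17, adjusted p = 0.966).

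Of the R-spondins, secreted proteins that amplify the pathway through Lgr receptors, Rspo1 was called and the more abundant Rspo2 (12.4 CPM in controls, log2 fold change -0.14, adjusted p = 0.333) and Rspo3 (8.65 CPM, 0.21, adjusted p = 0.251) were not. Rspo1 was at 2.81 to 3.33 CPM in controls and 4.17 to 6.02 CPM in nlsYAP5SA mice (0.80, SE 0.12, adjusted p = 0.0010). The receptor Lgr6 was lower in every nlsYAP5SA mouse (-0.31, SE 0.08, adjusted p = 0.0239), and the membrane inhibitor Apcdd1 was lower with overlapping groups (-0.21, SE 0.06, adjusted p = 0.0445). Without a call, each C57BL/6 mouse was above every control for Lgr6 (0.37, SE 0.10, adjusted p = 0.705) and below every control for Apcdd1 (-0.11, SE 0.06, adjusted p = 0.9996). Set against C57BL/6 mice, nlsYAP5SA mice were called lower for Lgr6 (-0.69, SE 0.11, adjusted p = 0.0072) and not for Apcdd1 (-0.11, SE 0.08, adjusted p = 0.479). Wls, the carrier of Wnts to the surface (0.28, SE 0.08, adjusted p = 0.0495), and Celsr1 of the planar polarity branch (0.47, SE 0.11, adjusted p = 0.0179) were higher with overlapping groups.

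Among 5 commonly used targets of β-catenin, Cd44 and Ccnd1 were called and Sp5, Myc and Tnfrsf19 were not. Cd44, a hyaluronan receptor also found on reactive astrocytes and immune cells, was at 11.2, 15.2, 12.7, 12.1 and 12.3 CPM in controls and at 40.8, 39.7, 37.4, 47.5 and 42.1 CPM in nlsYAP5SA mice (1.71, SE 0.09, adjusted p = 2.89e-07). Ccnd1, which encodes cyclin D1, had a log2 fold change of 0.31 (SE 0.08, adjusted p = 0.0272). Sp5 had 0.33 with an adjusted p of 0.506. None of the 15 cytoplasmic relay genes was called by edgeR (2 at an unadjusted p of 0.05, and Dvl1 by DESeq2), and none of the 11 nuclear cofactors (1 at that p, 0 by DESeq2). With the Y-linked covariate the 11 calls fell to 3, Cd44, Gpc4 and Rspo1. For the lost calls the log2 fold change was then 0.53 for Ror1, 0.47 for Reck, 0.44 for Celsr1 and 0.33 for Ccnd1. It was 0.24 for Wls, 0.22 for Ptk7, -0.39 for Lgr6 and -0.20 for Apcdd1. A lost call does not show that a difference was absent.

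Markers of several cell types differed between the same mice. Neurod6, the gene whose locus drives NEX-Cre and holds its insertion, was at 91.5 to 109.9 CPM in controls and 38.9 to 56.8 CPM in nlsYAP5SA mice (-0.98, SE 0.09, adjusted p = 2.65e-05), and it was the only call among 7 markers of excitatory neurons, whose summed level was 1229 to 1395 CPM in controls and 1075 to 1242 CPM in nlsYAP5SA mice. For Neurod6, an allele taken by Cre and fewer cells of the lineage cannot be told apart. Of 6 astrocyte markers 3 were higher and 1 lower, with a summed level of 1256 to 1571 CPM in controls and 2003 to 2436 CPM in nlsYAP5SA mice, led by Gfap (2.06, SE 0.07, adjusted p = 1.34e-08). Of 5 microglial markers 4 were higher, with sums of 189.5 to 246 and 265 to 354 CPM. Meningeal and perivascular fibroblasts, cells that express several Wnts and Sfrps, had 2 of 8 markers higher and 1 lower, with overlapping sums of 168 to 257 and 187 to 293 CPM.

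Vascular markers gave 2 of 7 endothelial genes lower (sums of 179 to 213 and 164 to 204 CPM) and, of 5 mural genes, 1 higher and 2 lower (238 to 304 and 165 to 261 CPM). Ciliated ependymal markers had 1 of 5 higher (10.4 to 23.1 and 22.6 to 25.5 CPM), choroid plexus markers 1 of 7 higher (11.5 to 237 and 14.0 to 311 CPM), progenitor markers 1 of 5 higher (119.5 to 129 and 105 to 178 CPM) and thalamic markers 1 of 7 lower (191 to 218 and 159.5 to 197 CPM). Of 6 oligodendrocyte markers edgeR called 0, with 3 at an unadjusted p of 0.05 and 1 (Mbp) by DESeq2, and sums of 1807 to 2943 and 1220 to 2515 CPM. The choroid plexus gene Ttr ran from 0.821 to 217 CPM within the controls and from 0.782 to 275.5 CPM within nlsYAP5SA mice. With its level as a covariate Fzd5 was not called (adjusted p = 0.0791) and Fzd8 was (adjusted p = 0.0400), and the other 7 calls stood. With the Y-linked level as a covariate 10 of the 21 marker calls were made: Gfap, Neurod6, Cx3cr1, Csf1r, Aif1, Aldh1a2, Cldn5, Acta2, Rgs16 and Hopx. The lost calls follow with main and then covariate log2 fold changes. Higher in both were Folr1 (2.20, 1.925), Foxj1 (0.78, 0.70), Col1a2 (0.62, 0.42), Gja1 (0.36, 0.20), Tmem119 (0.36, 0.33) and Slc1a3 (0.31, 0.22). Lower in both were Lum (-0.83, -0.69), Rgs5 (-0.58, -0.60), Kcnj8 (-0.50, -0.53), Cdh5 (-0.45, -0.51) and S100b (-0.35, -0.38). No marker was at 0 in all samples, and the part of these cell types in the values of the Wnt genes was not tested.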

How the data were processed

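RNA of 1 hemisphere was sequenced from 13 mice, grouped by the genotype in the labels (control, n = 5; nlsYAP5SA, n = 5; C57BL/6, n = 3). After trimming with CutAdapt and mapping with STAR to GRCm38 release 86, the authors deposited estimated counts per gene made with RSEM 1.3.0, without normalisation. RSEM shares reads that match several genes, and the strand setting is not given in the sources used here, so overlapping genes are uncertain. All 13 columns were used and rounded, since 12.4% to 13.3% of a sample's values were not whole.

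Genes were filtered with filterByExpr (minimum count 10, minimum total 15), scaled by TMM and fitted in edgeR (version 4.0.16, limma 3.58.1, R 4.3.3) on the samples of each comparison alone. The quasi-likelihood test was two-sided, with Benjamini-Hochberg adjustment across every gene in the fit and a call at an adjusted p of 0.05 or less. Libraries of 20871566 to 25524349 estimated counts set the precision, and the spread between mice is in the standard errors. All 16315 genes of the main comparison were fitted, and only Wnt genes, design genes and markers are described. Every gene of the name rule is reported, with the wider pathway genes that were called. Coordinates and exon lengths are from GENCODE M21 of GRCm38. A further microglial marker is not reported here. Scripts were tested on simulated data.

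The alternatives were DESeq2's size factors, library size alone, no filter, at least 10 counts in every sample, DESeq2 1.42.0 with a prior on fold changes or none, a joint fit of 13 samples, a block for the replicate number, covariates for Ttr and for 4 Y-linked genes, offsets for GC content and length, leaving out each mouse, the longest transcript in place of all exons for levels per kb and, chosen after seeing the data, the mice with Y-linked transcripts (above 10 CPM) only. The genes, the lists and the alternatives were chosen with earlier results of these data known. Labels name the mice and give no batch.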

Additional observations from a re-analysis of the deposited data

Results flagged for a closer look

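In groups of 5 mice, the highest or lowest value was compared with its nearest neighbour relative to the range of the group (Dixon's ratio, critical value 0.71). Of 84 groups tested, 6 held a mouse that stood apart, and chance alone gives about 5% of such groups. In Wnt16, control replicate 1 had 0.327 CPM where the other controls had 0.965 to 1.08 CPM. Lef1 lay at 6.41 CPM in nlsYAP5SA replicate 3 and at 8.94 to 9.60 CPM in the others of its group. Tcf7 was at 3.87 CPM in control replicate 2 and at 5.12 to 5.62 CPM in the other controls.

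Both ligases of the receptor turnover pair stood apart in the same mouse, control replicate 3, with Rnf43 at 3.29 CPM (others 1.92 to 2.17) and Znrf3 at 21.2 CPM (others 15.1 to 16.4). That mouse was also the control with the highest level of long transcripts. Axin2 was at 26.7 CPM in nlsYAP5SA replicate 4 beside 25.5 to 25.6 CPM in the others, a group whose whole range is narrow. None of the 6 genes was called between nlsYAP5SA and control mice by edgeR's quasi-likelihood test.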

How the results depend on the processing

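The 8 calls between nlsYAP5SA and control mice became 3 with the Y-linked level as a covariate and 1 (Sfrp1) in the mice with Y-linked transcripts only, an alternative chosen after seeing the data that leaves 5 against 2 mice. Leaving out each mouse gave 6 (without control replicate 4 or nlsYAP5SA replicate 5) to 9 calls. The 11 wider pathway calls became 7 without a filter, 3 with the Y-linked covariate and 2 in mice with Y-linked transcripts, and leaving out each mouse gave 4 (without nlsYAP5SA replicate 2) to 10, with 7 or fewer without any of control replicates 1, 2, 4 and 5 or nlsYAP5SA replicates 1, 2 and 5. Against C57BL/6 mice, the 5 calls became 3 (Sfrp1, Wnt5a and Nkd1) with the Y-linked covariate, 0 in mice with Y-linked transcripts and 3 to 7 on leaving out each mouse, with 3 without any of nlsYAP5SA replicates 1, 2 and 5 or C57BL/6 replicates 1 and 2. C57BL/6 against control gave 0 calls on leaving out each mouse. The ordinary loess offset for GC content and length called 2829 genes, 41.5% of them higher, beside 68.1% of 1761 in the main test, and called 10 of the Wnt genes, Fzd5 not among them (adjusted p = 0.0556). The cause of these differences was not tested. No fold change of a called gene changed sign under any of the 23 alternatives.

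Same-numbered control and nlsYAP5SA mice did not deviate together (correlations of -0.241 to 0.201 over 5 pairs, and 2 of 10 mice correlated best with their own number), so the replicate numbers were not taken as pairs. With the replicate block, 6 of the 8 Wnt calls, 6 of the 11 wider calls and 0 of the 5 calls against C57BL/6 mice were made. The block against C57BL/6 mice used only the replicate numbers shared by both groups, 3 mice in each. Its lost calls therefore do not separate the block from the smaller number of mice. Against controls, Fzd1 (log2 fold change 0.33, adjusted p = 0.0654) and Fzd10 (-0.45, adjusted p = 0.0797) were lost.

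Depth limits most the genes that did not pass the filter, Wnt1, Wnt3a, Wnt8a, Wnt8b, Wnt10b, Dkk1, Dkk4 and Sfrp5, and Wnt10a, Wnt11, Wnt16 and Sfrp4, which passed it with fewer than 10 counts in some sample. Sex and genotype were unevenly combined, with 2 nlsYAP5SA mice that had Y-linked transcripts beside 5 controls, and their parts cannot be fully told apart.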
